A study of Mus musculus with 18 samples.

Results

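The 35 genes described here are the mouse T cell receptor beta V segments, the genes whose symbol begins with Trbv, out of 34162 genes in the deposited table. Membership was decided by gene symbol alone, but the family was taken up with the share of 1 segment, Trbv26, already known from these libraries. Usage, evenness and sharing of the segments between libraries are therefore given as descriptions with no test. All 35 lie on chromosome 6 (GRCm38, mm10), 34 on the plus strand and Trbv31 on the minus strand. GENCODE annotates 22 of them as functional V genes and 13 as pseudogenes, and RefSeq differs on a pair of them, calling Trbv24 functional and Trbv29 a pseudogene.

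Each library holds the messenger RNA of some 500 CD4+ effector T cells, which were sorted 3 weeks after T cells had been moved into Rag-deficient mice. The transferred cells came from 2 kinds of C57BL/6 donor. One carried Nr1i3-/-, which removes CAR (the constitutive androstane receptor, a nuclear receptor that senses foreign compounds), and the other was wild type for CAR and carried the congenic marker CD45.1, so the genotypes also differ in that marker. The organs were small intestine lamina propria (siLP), colon lamina propria (cLP) and spleen, which gives 6 groups of 3 libraries, 18 in all. The hosts cannot make T cells of their own, since Rag proteins are needed to assemble receptor genes. The labels do not state if the 3 libraries of a group are from different animals, or if cells of both genotypes shared a host. The count columns carry no replicate number, only a column ending that recurs across the 6 groups, and the libraries are called a, b and c by that ending. No column names Nr1i3: those marked as lacking CD45.1 were read as CAR-deficient, the one other group in each organ, and each genotype comparison rests on that reading.

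A T cell builds its receptor beta chain in the thymus by joining 1 V, 1 D and 1 J segment by cutting and rejoining the DNA, and splices the result to a constant segment, Trbc1 or Trbc2. A productive join on 1 allele blocks rearrangement of the other, so a mature T cell and its daughters mostly carry 1 functional beta chain. The share of V segments in the transcripts of a population thus reflects both which segments its founders used and how far each clone has expanded, and in a bulk library fewer cells of a clone and less receptor RNA per cell cannot be told apart.

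The V segments differ in the stretch before the join, which allows short reads to tell most of them apart. The last 48 bases of the annotated coding sequence are shown for 8 segments, those that led the least even libraries and the members of the near-identical subgroups that were most used, read 5′ to 3′ from the GENCODE vM21 transcripts of GRCm38. Capitals mark the cysteine codon, TGT or TGC, that closes the V domain and opens the hypervariable loop to which D and J are joined.
Trbv26: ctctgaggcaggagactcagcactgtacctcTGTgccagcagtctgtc
Trbv23: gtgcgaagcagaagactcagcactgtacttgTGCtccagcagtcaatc
Trbv16: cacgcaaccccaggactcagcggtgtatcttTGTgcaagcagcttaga
Trbv17: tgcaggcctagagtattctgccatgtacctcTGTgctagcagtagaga
Trbv13-1: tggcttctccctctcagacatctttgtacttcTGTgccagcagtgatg
Trbv13-2: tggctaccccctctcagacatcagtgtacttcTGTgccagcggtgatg
Trbv12-1: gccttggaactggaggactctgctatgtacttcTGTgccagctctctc
Trbv12-2: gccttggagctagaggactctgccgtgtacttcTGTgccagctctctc
The first line is the end of Trbv26 (chr6:41227946-41227993) and the second that of Trbv23 (chr6:41216479-41216526), the first and second segments of 6 wild type libraries. Trbv16 (chr6:41152183-41152230) led 3 CAR-deficient libraries and Trbv17 (chr6:41163509-41163556) led 1. Trbv13-1 (chr6:41116421-41116468) and Trbv13-2 (chr6:41121785-41121832) belong to 1 subgroup, and Trbv12-1 (chr6:41114020-41114067) and Trbv12-2 (chr6:41119317-41119364) to another; all 8 are on the plus strand. The printed ends of Trbv12-1 and Trbv12-2 differ at 4 of 48 bases.

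Over their whole coding transcripts, 4 of 231 pairs of functional segments share an identical run of 31 bases. Trbv13-2 and Trbv13-3 were 90.6% identical and shared 31 words of 31 bases, counted at overlapping positions. Trbv12-1 and Trbv12-2 were 88.3% identical and shared 14 such words. The other 2 pairs join Trbv13-1 to Trbv13-2 and to Trbv13-3. Only the Trbv12 and Trbv13 members, 6 in all, had counts that were not whole numbers (beyond 0.01), which marks reads that were divided between copies, so values within these subgroups are uncertain. Trbv26 and Trbv23 were 73.7% identical to each other and shared no such run with any member.

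Total counts ran from 19605316 to 25436582 per library, and Trbv counts from 8923 to 20940. A share of 0 counts allows at most 0.0143% to 0.0336% of a library's Trbv counts (3 counts), and the widest 95% exact Clopper-Pearson interval of any share spanned 1.97 percentage points. No molecular identifiers mark PCR copies here, so both cover counting error only. Cd4 had 109 to 236 CPM (counts relative to the library total scaled by TMM). Of the markers of the other main T cell lineage, Cd8a had 2.46 CPM at its highest and Cd8b1 11.6 CPM, in siLP CAR-deficient a. Among myeloid markers Lyz2 reached 119 CPM, in siLP wild type b, Itgax 16.5 CPM and Csf1r 5.38 CPM. Among epithelial markers Krt8 reached 29.5 CPM, Epcam 29.1 CPM and Vil1 1.49 CPM, all in cLP CAR-deficient b. The deleted gene, Nr1i3, had few counts or none in both genotypes, except in 1 library. In CAR-deficient cells its counts were 196, 0 and 0 in siLP libraries a, b and c, 0, 29 and 1 in their cLP counterparts and 0, 14 and 14 in their spleen counterparts. In wild type cells they were 0, 5 and 0 in siLP libraries a, b and c, 0, 0 and 10 in their cLP counterparts and 36, 0 and 7 in their spleen counterparts. The 196 counts in the library labelled siLP CAR-deficient a go against its label, but they also exceed every wild type library, of which the highest had 36. Counts per gene do not show which exons the reads came from, so Nr1i3 counts do not settle the label. Libraries of ending a had 15592 to 16241 genes with counts, against 17081 to 18930 for endings b and c, and 3.70% to 3.98% of mitochondrial counts, against 2.23% to 3.22%.

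Trbv26 (ENSMUSG00000076479, chr6:41227505-41227993), known in older nomenclature as Vβ3, led usage in none of the 9 CAR-deficient libraries and in 6 of the 9 wild type libraries. It held 0%, 0.478% and 0.0478% in siLP CAR-deficient libraries a, b and c, 0%, 0.258% and 0.301% in their cLP counterparts and 0%, 0.466% and 0.404% in their spleen counterparts. Wild type libraries gave 68.5%, 51.97% and 0.281% in siLP wild type libraries a, b and c, 67.3%, 57.01% and 0.727% in their cLP counterparts and 71.95%, 57.8% and 0.227% in their spleen counterparts. The wild type libraries thus fell into a and b, where Trbv26 took more than 50% in every organ, and c, where it took less than 1%.

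Counts behind these shares were 0, 76 and 10 in siLP CAR-deficient libraries a, b and c, 0, 31 and 37 in their cLP counterparts and 0, 63 and 54 in their spleen counterparts. The wild type counts were 7847, 6435 and 56 in siLP wild type libraries a, b and c, 7048, 5584 and 109 in their cLP counterparts and 8542, 6577 and 32 in their spleen counterparts. All 3 CAR-deficient libraries of ending a had 0 counts of Trbv26, the one labelled siLP CAR-deficient a included. Wild type c overlapped the CAR-deficient libraries in its share in siLP and spleen, and lay above them in cLP.

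Trbv23 (ENSMUSG00000076478, chr6:41216073-41216526), was the second segment in the same 6 wild type libraries. Its share was 0%, 0% and 0% in siLP CAR-deficient libraries a, b and c, 0%, 0.108% and 0.196% in their cLP counterparts and 0%, 0.0074% and 0.0674% in their spleen counterparts. The wild type shares were 12.9%, 16.9% and 0.0351% in siLP wild type libraries a, b and c, 6.12%, 12.3% and 0.0467% in their cLP counterparts and 9.21%, 14.4% and 0.0212% in their spleen counterparts. No CAR-deficient library and no wild type c library reached 1%.

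Trbv26 and Trbv23 together held at most 0.497% of the Trbv counts in CAR-deficient libraries, 68.9% to 81.4% in wild type a and b and at most 0.774% in wild type c. The count of Trbv23 relative to that of Trbv26 was not constant across those 6, running from 0.0909 in cLP wild type a to 0.325 in siLP wild type b. In all 3 organs it was higher in wild type b than in wild type a.

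**Figure D1:**
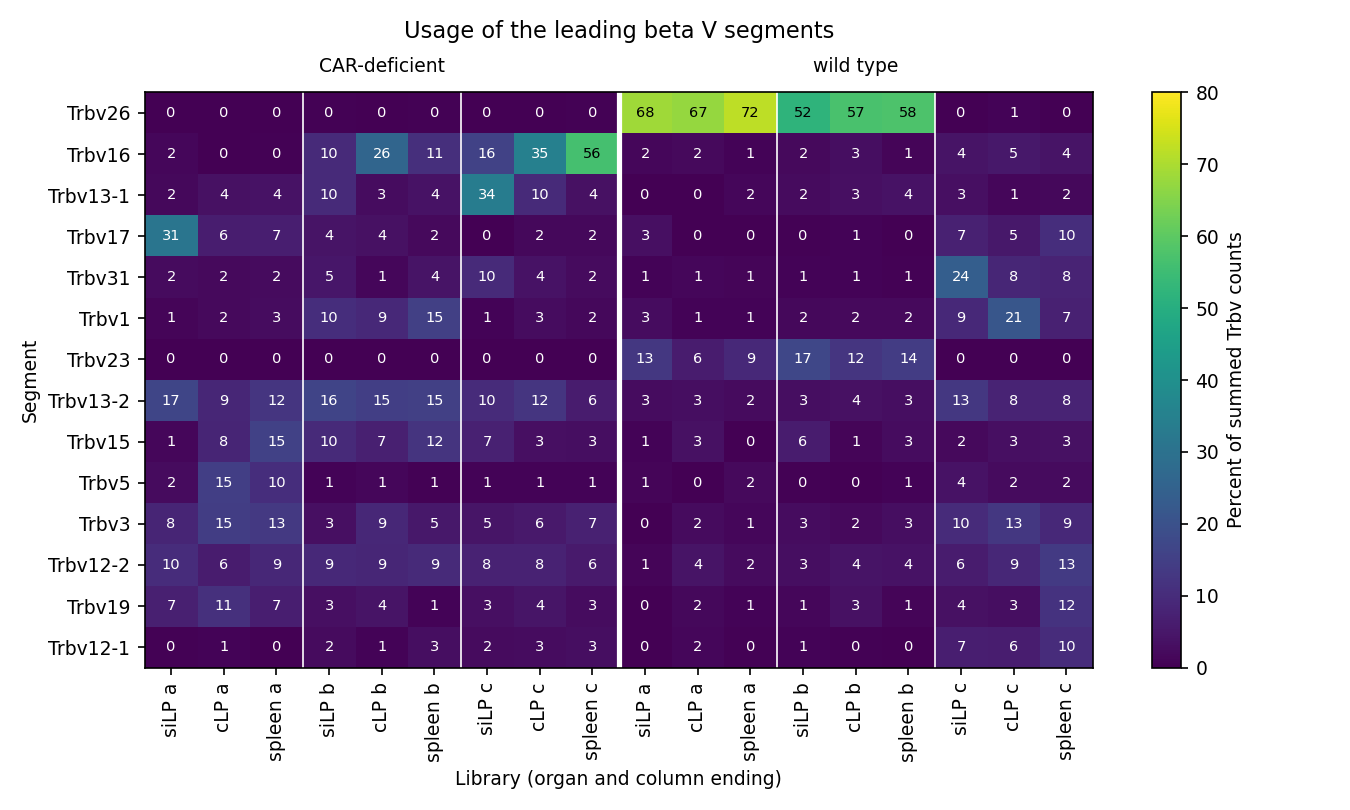
Percent of summed Trbv counts held by the 14 segments that reached 10% in at least 1 library (rows, ordered by their highest share), in each of 18 libraries (columns: organ and column ending, CAR-deficient on the left, wild type on the right; white lines separate the endings). The brightest cells of the CAR-deficient side are Trbv16 in spleen c (56.3%) and cLP c (34.8%), Trbv13-1 in siLP c (33.6%) and Trbv17 in siLP a (30.95%), while Trbv26 fills 52.0% to 72.0% of wild type a and b in every organ.

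Of the 35 segments, 14 held at least 10% in at least 1 library, 21 held at least 1% in at least 1 library, and 8 did not reach 3 counts in any. Trbv13-2 and Trbv12-2 were the 2 segments with at least 1% in all 18 libraries. Among the 13 pseudogenes of the GENCODE annotation, 7 had no count in any library and 1 alone reached 1%. That was Trbv24 (ENSMUSG00000102955), which RefSeq calls functional. Its share was at most 0.504% in the 9 CAR-deficient libraries, against 2.09% in siLP wild type a, 1.19% in spleen wild type a and at most 0.521% in the other 7 wild type libraries. The 13 GENCODE pseudogenes together took 0% to 2.16% of a library's Trbv counts. Trbv29, a pseudogene by RefSeq alone, is not among them. It held 2.47% in siLP CAR-deficient a, 1.07% in cLP wild type c and less than 1% in every other library.

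The leading segment differed among CAR-deficient libraries. In siLP the leaders of libraries a, b and c were Trbv17 30.95% (95% interval 30.2% to 31.7%), Trbv13-2 16.3% (95% interval 15.7% to 16.8%) and Trbv13-1 33.6% (95% interval 32.9% to 34.2%). In cLP they were Trbv5 14.9% (95% interval 14.2% to 15.7%), Trbv16 26.2% (95% interval 25.4% to 26.96%) and Trbv16 34.8% (95% interval 33.9% to 35.6%). In spleen they were Trbv15 15.4% (95% interval 14.6% to 16.1%), Trbv13-2 15.2% (95% interval 14.6% to 15.8%) and Trbv16 56.3% (95% interval 55.4% to 57.1%). No organ of the CAR-deficient cells had the same leader in all 3 libraries, and 1 segment, Trbv16, led 3 of the 9.

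Wild type a and b were led by Trbv26 throughout. Its intervals were 67.6% to 69.3% and 51.1% to 52.8% in siLP a and b. They were 66.3% to 68.2% and 56.02% to 57.99% in cLP, and 71.1% to 72.8% and 56.8% to 58.7% in spleen. Wild type c had a different leader in each organ, with Trbv31 23.9% (95% interval 23.4% to 24.5%) in siLP, Trbv1 21.3% (95% interval 20.6% to 21.9%) in cLP and Trbv12-2 13.5% (95% interval 12.9% to 14.1%) in spleen. These shares follow counts, and longer transcripts draw more reads; divided by annotated transcript length, which ran from 335 to 566 bases among functional members, the same segment led in 18 of 18 libraries.

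Trbv16 (ENSMUSG00000076473, chr6:41151740-41152230; Vβ11) had the highest share of any segment outside wild type a and b. It held 1.54%, 9.59% and 15.9% in siLP CAR-deficient libraries a, b and c, 0%, 26.2% and 34.8% in their cLP counterparts and 0.448%, 10.7% and 56.3% in their spleen counterparts. Wild type cells had 1.53%, 2.16% and 4.37% in siLP wild type libraries a, b and c, 2.08%, 2.98% and 5.22% in their cLP counterparts and 0.632%, 1.001% and 4.28% in their spleen counterparts. It was at least 9.59% in CAR-deficient b and c and at most 1.54% in CAR-deficient a, while all 9 wild type values lay below 6%. Within CAR-deficient c its share was lowest in siLP and highest in spleen, and in b it was highest in cLP.

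Trbv13-1 (Vβ8.3, chr6:41116007-41116468) stood out in 1 library. It held 1.7%, 9.5% and 33.6% in siLP CAR-deficient libraries a, b and c, 3.67%, 2.63% and 9.51% in their cLP counterparts and 3.99%, 3.9% and 3.69% in their spleen counterparts. Among wild type libraries the shares were 0.00873%, 2.37% and 3.36% in siLP wild type libraries a, b and c, 0.00954%, 3.16% and 1.33% in their cLP counterparts and 1.53%, 3.99% and 1.62% in their spleen counterparts. The siLP CAR-deficient c value was more than 3 times the next highest of the 18, which was cLP of the same ending.

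Trbv13-2 (Vβ8.2, chr6:41121396-41121832) held at least 2.33% in every library. It held 16.7%, 16.3% and 9.79% in siLP CAR-deficient libraries a, b and c, 8.69%, 14.9% and 12.4% in their cLP counterparts and 12.4%, 15.2% and 6.04% in their spleen counterparts. Its wild type shares were 2.76%, 2.84% and 12.9% in siLP wild type libraries a, b and c, 2.95%, 3.59% and 8.09% in their cLP counterparts and 2.33%, 3.02% and 8.08% in their spleen counterparts. Outside wild type a and b its median was 12.4%, and within those 6 libraries it ran from 2.33% to 3.59%.

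Trbv17 (Vβ9, chr6:41163062-41163556) was highest in the library labelled siLP CAR-deficient a. It held 30.95%, 4.25% and 0% in siLP CAR-deficient libraries a, b and c, 6.25%, 3.56% and 1.77% in their cLP counterparts and 6.86%, 2.05% and 1.62% in their spleen counterparts. Wild type values were 3.4%, 0.331% and 7.27% in siLP wild type libraries a, b and c, 0.258%, 0.735% and 5.01% in their cLP counterparts and 0.118%, 0.0878% and 10.4% in their spleen counterparts. Besides that library, it exceeded 10% in spleen wild type c alone.

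Trbv31 (Vβ14, chr6:41557691-41558452) lies beyond the constant segments in the opposite orientation and joins by inversion, unlike all other members. It held 2.2%, 4.72% and 9.68% in siLP CAR-deficient libraries a, b and c, 2.07%, 1.25% and 3.91% in their cLP counterparts and 2.29%, 4.2% and 2.48% in their spleen counterparts. Wild type libraries gave 0.768%, 0.848% and 23.9% in siLP wild type libraries a, b and c, 1.45%, 0.766% and 8.45% in their cLP counterparts and 1.01%, 0.58% and 7.91% in their spleen counterparts. The siLP wild type c share exceeded all others, and the next highest was that of siLP CAR-deficient c.

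Trbv1 (Vβ2, chr6:40891229-40891885) lies at the far end of the cluster from the D and J segments. It held 1.12%, 10.4% and 0.683% in siLP CAR-deficient libraries a, b and c, 2.18%, 9.16% and 2.63% in their cLP counterparts and 2.79%, 15.1% and 1.78% in their spleen counterparts. The wild type shares were 2.51%, 1.61% and 9.24% in siLP wild type libraries a, b and c, 0.754%, 2.04% and 21.3% in their cLP counterparts and 0.918%, 1.98% and 7.26% in their spleen counterparts. Its high values were in CAR-deficient b and in wild type c.

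Trbv3 (Vβ16), Trbv5 (Vβ1) and Trbv15 (Vβ12) had their highest shares in CAR-deficient libraries. Trbv3 held 8.43%, 3.4% and 4.56% in siLP CAR-deficient libraries a, b and c, 14.6%, 8.91% and 5.55% in their cLP counterparts and 13.3%, 5.14% and 7.31% in their spleen counterparts. Wild type cells had 0%, 2.65% and 9.72% in siLP wild type libraries a, b and c, 2.34%, 2.17% and 13% in their cLP counterparts and 1.48%, 2.97% and 9.22% in their spleen counterparts. Its share was high in CAR-deficient a and in wild type c.

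Trbv5 held 2.25%, 0.812% and 0.883% in siLP CAR-deficient libraries a, b and c, 14.9%, 1.49% and 0.782% in their cLP counterparts and 10.4%, 0.555% and 0.764% in their spleen counterparts. Among wild type libraries the shares were 1.14%, 0.444% and 4.02% in siLP wild type libraries a, b and c, 0.124%, 0.123% and 2.4% in their cLP counterparts and 1.996%, 0.667% and 2.26% in their spleen counterparts. Its 2 highest values, in cLP and spleen CAR-deficient a, exceeded all 16 others by more than 6 percentage points. Trbv15 held 1.25%, 9.55% and 7.42% in siLP CAR-deficient libraries a, b and c, 8.18%, 7.13% and 3.15% in their cLP counterparts and 15.4%, 11.96% and 2.93% in their spleen counterparts. Its wild type shares were 0.829%, 5.98% and 1.94% in siLP wild type libraries a, b and c, 3.47%, 1.1% and 3.18% in their cLP counterparts and 0.0168%, 2.7% and 3.45% in their spleen counterparts. No wild type library reached 6%, and CAR-deficient libraries lay on both sides of that level.

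In the Trbv12 subgroup, Trbv12-2 reached 1% in 18 libraries and Trbv12-1 in 9, and Trbv19 (Vβ6) did so in 15. Trbv12-2 held 10.04%, 9.1% and 7.61% in siLP CAR-deficient libraries a, b and c, 6.24%, 8.6% and 7.71% in their cLP counterparts and 8.79%, 9.45% and 5.75% in their spleen counterparts. Wild type values were 1.12%, 3.06% and 6.23% in siLP wild type libraries a, b and c, 4.16%, 4.16% and 9.03% in their cLP counterparts and 2.39%, 3.76% and 13.5% in their spleen counterparts. It kept between 5.75% and 13.5% in every library outside wild type a and b.

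Trbv12-1 held 0.395%, 2.23% and 2.47% in siLP CAR-deficient libraries a, b and c, 0.798%, 0.634% and 2.52% in their cLP counterparts and 0%, 2.91% and 3.11% in their spleen counterparts. Wild type libraries gave 0.114%, 0.86% and 6.61% in siLP wild type libraries a, b and c, 1.52%, 0.44% and 6.44% in their cLP counterparts and 0.422%, 0.283% and 10.1% in their spleen counterparts. All 3 wild type c libraries lay above all 15 others, with the uncertainty given for this subgroup. Trbv19 held 7.1%, 3.26% and 3.33% in siLP CAR-deficient libraries a, b and c, 11.01%, 4.19% and 4.38% in their cLP counterparts and 6.81%, 0.873% and 2.67% in their spleen counterparts. The wild type shares were 0.113%, 1.3% and 3.56% in siLP wild type libraries a, b and c, 1.57%, 3.48% and 3.09% in their cLP counterparts and 0.893%, 1.24% and 11.8% in their spleen counterparts. Its 2 values over 10%, cLP CAR-deficient a and spleen wild type c, came from different genotypes and organs.

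Evenness was summarised by the effective number of segments, the exponential of the Shannon entropy of the shares, which is the number of equally used segments that would give the same entropy. It was 9.24, 14.4 and 8.29 in siLP CAR-deficient libraries a, b and c, 12.4, 10.99 and 9.92 in their cLP counterparts and 12.4, 12.7 and 6.004 in their spleen counterparts. In wild type cells it was 3.57, 6.14 and 11.9 in siLP wild type libraries a, b and c, 4.37, 5.79 and 12.6 in their cLP counterparts and 3.6, 5.33 and 13.7 in their spleen counterparts. Wild type a and b lay lowest in each organ, and the lowest CAR-deficient library was spleen c with 6.00. Wild type c lay among or above the CAR-deficient libraries.

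Group means and SDs (n = 3 each) were 10.6 ± 3.27 in CAR-deficient and 7.21 ± 4.27 in wild type siLP. They were 11.1 ± 1.25 in CAR-deficient and 7.60 ± 4.42 in wild type cLP, and 10.4 ± 3.78 in CAR-deficient and 7.55 ± 5.41 in wild type spleen. In each organ the difference of means was smaller than the wild type SD. Without the library labelled siLP CAR-deficient a, the siLP CAR-deficient mean was 11.3.

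With Trbv26 and Trbv23 left out and shares recomputed, CAR-deficient libraries had effective numbers of 5.86 to 14.1, wild type a and b 10.3 to 14.9 and wild type c 11.7 to 13.6. These 2 were the first and second segments of wild type a and b only, so leaving them out was bound to act mainly there. No other library had its own first 2 segments left out. The number of segments needed for 50% of the Trbv counts was 1 to 5 in CAR-deficient libraries, 1 in wild type a and b, and 4 or 5 in wild type c.

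**Figure D2:**
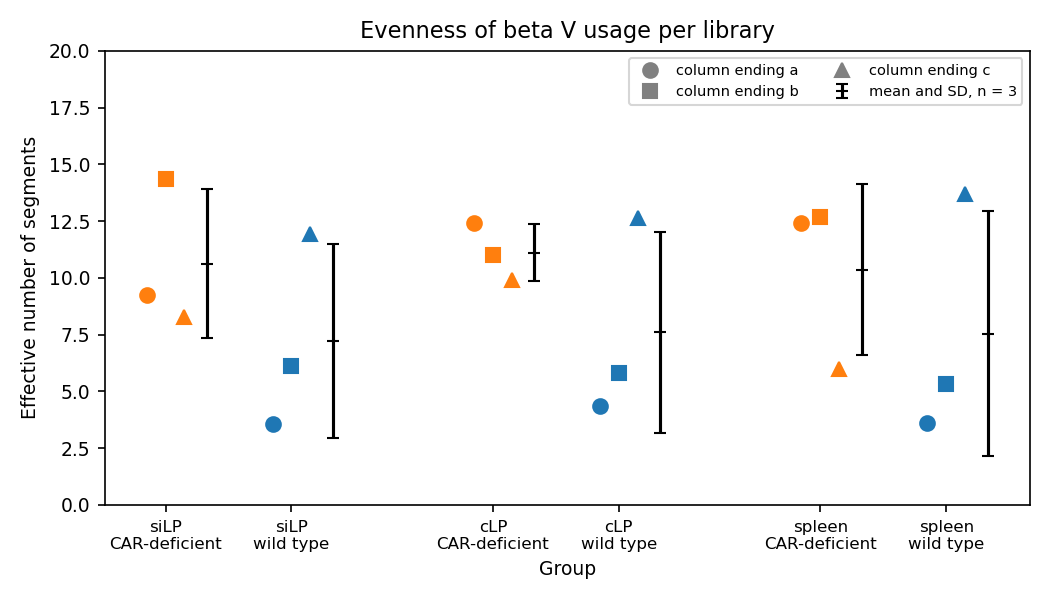
Effective number of beta V segments (vertical axis, a number of segments) in each library, with CAR-deficient (orange) left of wild type (blue) in each organ, marker shapes for the column endings, and black bars for mean ± SD of 3 libraries. CAR-deficient libraries run from 6.00 to 14.4, wild type a and b from 3.57 to 6.14, and wild type c from 11.9 to 13.71.

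Sharing between 2 libraries was measured as overlap, the sum over segments of the smaller of both percentages, which is 100% for identical usage. Libraries of the same genotype and ending from different organs overlapped by a median of 75.9% (range 51.4% to 92.1%, 18 pairs). Libraries of the same genotype and organ but different endings overlapped by a median of 47.1% (15.8% to 82.8%, 18 pairs), and those differing in organ and ending by 48.8% (16.2% to 83.4%, 36 pairs). Pairs of different genotypes overlapped by 28.2% with the same ending (13.8% to 54.3%, 27 pairs) and by 25.5% with different endings (9.51% to 63.3%, 54 pairs). The 153 pairs reuse 18 libraries and are not independent.

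For 18 of 18 libraries the most similar other library had the same genotype and ending, taken from another organ. Wild type c overlapped CAR-deficient c by a median of 49.4% (9 pairs) and CAR-deficient a and b by 58.9% (18 pairs). Libraries were thus nearest by genotype and ending together, and not by organ.

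The lowest overlaps involved wild type a and b. The CAR-deficient libraries overlapped them by 9.51% to 31.0% (54 pairs) and wild type c by 44.6% to 63.3% (27 pairs). Wild type a and b overlapped wild type c by 15.8% to 29.2% (18 pairs), although these share genotype. Among themselves, wild type a and b overlapped by 83.6% to 92.1% with the same ending (6 pairs) and by 75.8% to 83.4% with different endings (9 pairs), so these sets, a and b, were close to each other without being as close as the organs within a set.

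With Trbv26 and Trbv23 left out, the median overlap of different genotypes was 54.3% for the same ending and 58.2% for different endings. Libraries of the same genotype and ending then overlapped by a median of 71.6%, and for 15 of 18 libraries the nearest was still 1 of them. Among CAR-deficient libraries, pairs of endings b and c overlapped by 48.1% to 74.5%, a and b by 53.1% to 61.6%, and a and c by 34.1% to 49.4%. The highest overlap of libraries b and c lay just below that of organs within ending c, which ranged from 51.4% to 75.8%. The medians were 59.8% (9 pairs) and 65.6% (3 pairs).

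**Figure D3:**
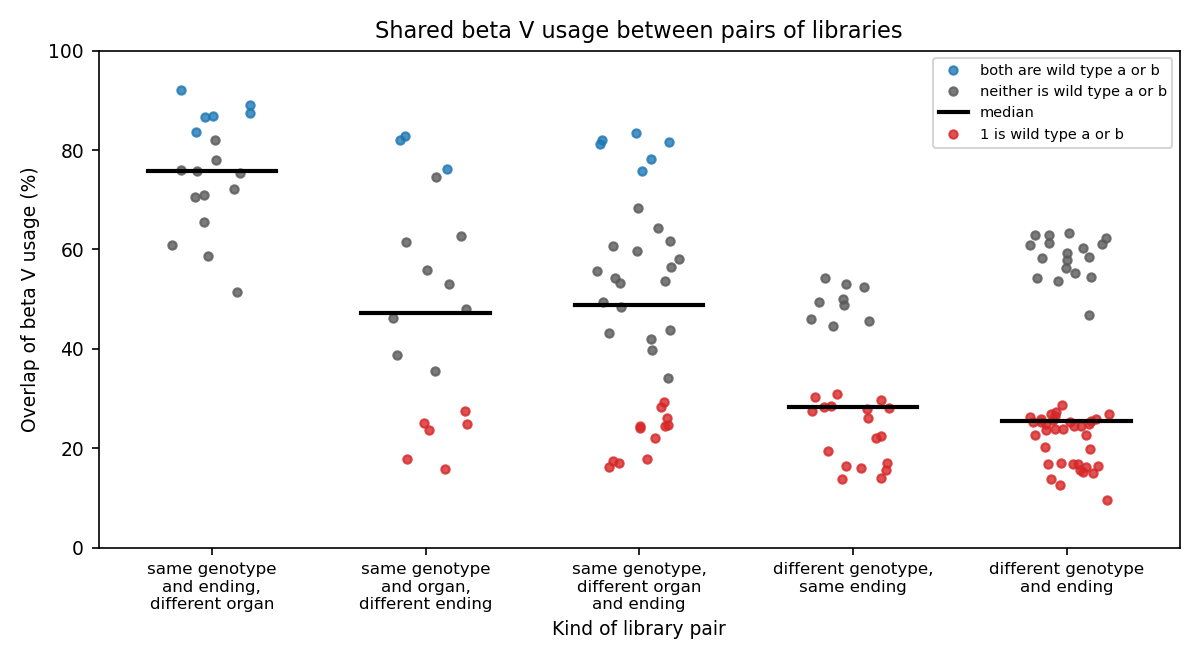
Overlap of beta V usage (vertical axis, percent) for each of 153 pairs of libraries, grouped by whether they share genotype, organ and column ending (horizontal axis); points are coloured by whether wild type a or b libraries are in the pair, and black lines are medians. Pairs of the same genotype and ending lie highest, with a median of 75.9%, and pairs in which 1 library is wild type a or b lie at or below 31.0%.

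Within each genotype and ending the organs differed in particular segments. In CAR-deficient a the largest gap was that of Trbv17, with 30.95% in siLP, 6.25% in cLP and 6.86% in spleen. In CAR-deficient b it was Trbv16, with 9.59% in siLP, 26.2% in cLP and 10.7% in spleen, and in CAR-deficient c again Trbv16, with 15.9%, 34.8% and 56.3% in siLP, cLP and spleen. These gaps lay in different directions, with the highest share in a different organ in each of the 3 sets.

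In wild type a the largest gap was that of Trbv23, with 12.9% in siLP, 6.12% in cLP and 9.21% in spleen. In wild type b it was Trbv26, with 52.0%, 57.0% and 57.8% in siLP, cLP and spleen, a gap of 5.79 percentage points. In wild type c Trbv31 differed most, with 23.9% in siLP, 8.45% in cLP and 7.91% in spleen. The organs of wild type a and b were thus closer to each other in every segment than those of the other 4 sets were in their most divergent one.

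The library labelled siLP CAR-deficient a overlapped the other CAR-deficient a libraries by 58.6% and 60.8%. It overlapped siLP wild type a by 13.8%, siLP wild type b by 19.9% and siLP wild type c by 53.7%. Its closest library was spleen CAR-deficient a, and its closest wild type library was spleen wild type c with 58.0%. Without it, the median overlap of the same genotype and ending was 77.0%.

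The J segments of the beta chain, joined after V and D, were read as another measure on the same transcripts. The 14 Trbj symbols had 420 to 1324 counts per library, fewer than the V segments, and libraries of the same genotype and ending overlapped by a median of 79.99%, against 71.9% to 74.0% for the other kinds of pair. For 11 of 18 libraries the nearest by Trbj shared genotype and ending. Where a V segment took a large share, a J segment did so in some libraries. In siLP CAR-deficient c, where Trbv13-1 held 33.6%, Trbj2-4 held 43.4% of Trbj counts, and in spleen CAR-deficient c, where Trbv16 held 56.3%, Trbj1-4 held 24.4%.

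Outside siLP CAR-deficient c, Trbj2-4 ran from 3.65% to 21.4%, and Trbj1-4 held 17.5% in cLP and 6.98% in siLP of CAR-deficient c. The effective number of J segments was 7.01 to 11.3 in CAR-deficient libraries, 10.5 to 11.8 in wild type a and b and 7.90 to 10.7 in wild type c. No J segment exceeded 21.2% in wild type a and b, where Trbv26 dominated. Wild type a and b thus had the least even V usage and J usage among the more even of the series. Counts of V and J come from separate features, so which V was joined to which J in a molecule is not measured.

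The alpha chain V segments gave another view, with the reservation that many of the 128 Trav symbols are near-identical copies. CAR-deficient a was led by Trav7d-2 in every organ, with 22.97% of Trav counts in siLP, 21.6% in cLP and 22.1% in spleen. CAR-deficient b was led by Trav4-4-dv10 in siLP (6.21%), Trav7d-3 in cLP (14.2%) and Trav4-4-dv10 in spleen (10.9%). CAR-deficient c was led by Trav8-1 in siLP (16.6%) and Trav3-3 in cLP (18.1%) and spleen (31.6%).

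Wild type a was led by Trav7d-4 in siLP (10.3%) and by Trav7-4 in cLP (10.9%) and spleen (9.35%). Wild type b was led by Trav7d-4 in siLP (6.81%), Trav7d-2 in cLP (7.10%) and Trav7-4 in spleen (11.3%). Wild type c was led by Trav7d-4 in siLP (7.58%), Trav9d-1 in cLP (11.96%) and Trav7d-4 in spleen (4.82%). Summed over its copies, the Trav7 subgroup held 31.9% to 33.5% in CAR-deficient a, 11.3% to 19.9% in CAR-deficient b and 6.02% to 23.8% in CAR-deficient c, against 26.2% to 46.8% in wild type a and b and 19.2% to 29.7% in wild type c. No alpha segment took a share like that of Trbv26 in any wild type library.

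By Trav usage, libraries of the same genotype and ending overlapped by a median of 65.1%, against 39.5% to 43.6% for the other kinds of pair, and the nearest library shared both in 17 of 18.

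Whether the summed level of beta V transcripts differed was a separate question, since the shares do not use the sum. Summed Trbv CPM averaged 750 ± 78.1 in CAR-deficient and 560 ± 139 in wild type siLP (SD, n = 3 each, on library sizes scaled by TMM). They averaged 560 ± 27.9 in CAR-deficient and 576 ± 111 in wild type cLP, and 570 ± 87.7 in CAR-deficient and 536 ± 65.7 in wild type spleen. Groups overlapped in cLP and spleen, and in siLP the highest wild type value lay above the lowest CAR-deficient one.

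Averaged over organs, CAR-deficient minus wild type was 0.17 on the log2 scale (exact two-sided permutation within organ, p = 0.159, adjusted over 3 comparisons p = 0.248; CAR-deficient lay higher on average in siLP and spleen, not in cLP). It was 0.17 without the library labelled siLP CAR-deficient a. Without wild type a and b it was -0.0977 (adjusted p = 0.516). The siLP minus spleen difference was 0.22 (p = 0.165, adjusted p = 0.248) and the cLP minus spleen difference 0.04 (p = 0.750, adjusted p = 0.750), both by exact permutation within genotype. None of the 3 differences exceeded the spread between libraries, and the last changed sign with unscaled library totals and without spleen wild type b, spleen CAR-deficient a or cLP wild type c (all -0.03 to -0.01). These p-values measure the spread between the deposited libraries, which may be technical. The permutation counts the organs of a genotype and ending as independent, so the genotype p-value may be too small.

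The constant segments, read from another part of the transcript, gave log2 differences of -0.07 ± 0.18 for Trbc1 and -0.14 ± 0.15 for Trbc2 (CAR-deficient minus wild type averaged over organs, estimate ± SE, edgeR adjusted p = 1.00 each). The sign of the Trbc1 difference changed when single wild type libraries of ending a were left out. The summed level of Trbc1 and Trbc2 ran from 2211 to 3565 CPM in CAR-deficient libraries, against 2537 to 3601 CPM in wild type ones. Trbc1 and Trbc2 are 87.9% identical, so their split is uncertain.

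With Trbv26 and Trbv23 taken away, the remaining segments summed to 470 to 826 CPM in CAR-deficient libraries, 96.2 to 157 CPM in wild type a and b and 594 to 713 CPM in wild type c. The total with both segments was 447 to 590 CPM in wild type a and b. On this relative scale the other segments were thus lower in these 6 libraries than in any other library. Absolute amounts per cell were not measured.

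**Figure D4:**
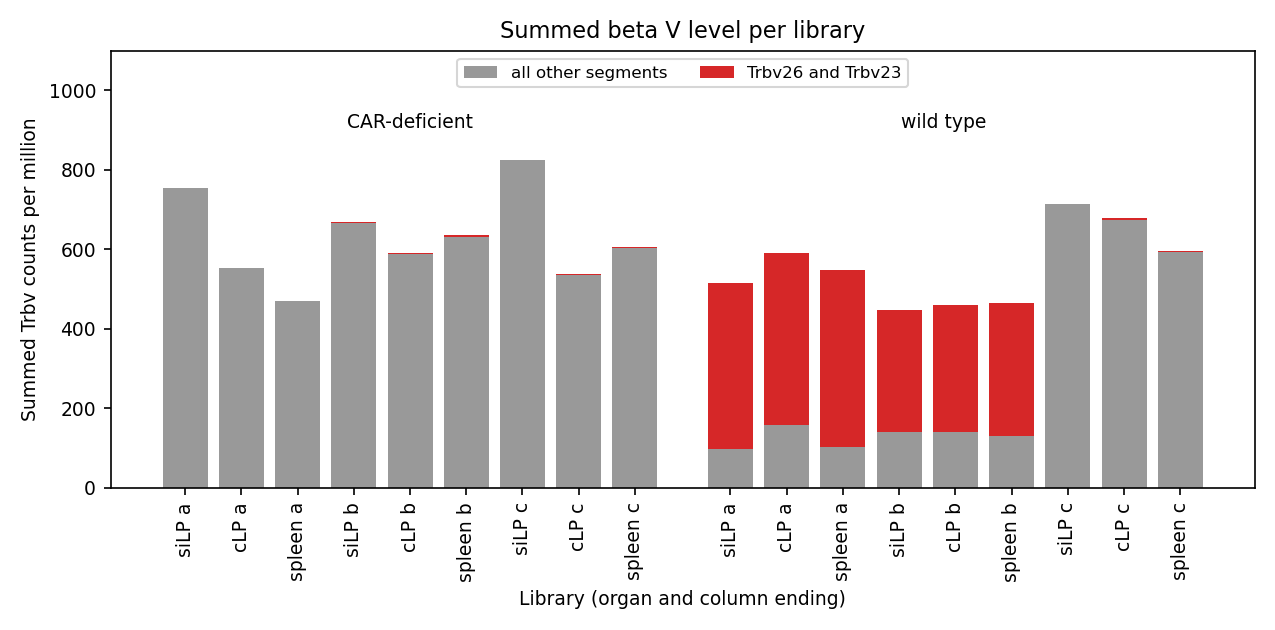
Summed Trbv CPM (vertical axis, bars from 0, library sizes scaled by TMM) in each library, CAR-deficient on the left and wild type on the right, with Trbv26 and Trbv23 in red and all other segments in grey. Wild type a and b reach 447 to 590 CPM with Trbv26 and Trbv23 and 96.2 to 157 CPM without them.

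Levels of single segments were also fitted together with all 14876 genes that passed the filter on low counts. Of the 35 members 23 were tested, the 22 functional segments and Trbv24, and the 12 other pseudogenes were too low. Since the family was taken up with genotype differences of its shares in view, the genotype counts are a description. The fit counts libraries of 1 genotype and ending from different organs as independent. By usage the nearest library lay in the same such set for 18 of 18 libraries. Standard errors and p-values of the averaged genotype comparison may therefore be too small. In CAR-deficient minus wild type averaged over organs, edgeR's quasi-likelihood test called 0 of 23 members (Benjamini-Hochberg adjusted p under 0.05), where 0.0134% of all genes were called. At an unadjusted p under 0.05 there were 8 members, where 5.77% of all genes passed, and DESeq2 called 3 of the 22 members it tested, Trbv2, Trbv23 and Trbv26, where it called 0.825% of all genes. The median log2 difference of the 23 was 0.67, against -0.01 for all genes. It was 0.34 without siLP CAR-deficient b and 1.11 without siLP wild type c.

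Within siLP edgeR called 0 members, where 0% of genes were called, with 6 at an unadjusted p under 0.05 (4.31% of genes) and 2 called by DESeq2, Trbv2 and Trbv23 (0.237% of genes by DESeq2). In cLP and in spleen it called 0, where 0% of genes were called, with 2 members each at an unadjusted p under 0.05 (2.44% and 1.95% of genes) and 0 by DESeq2 (0.0811% and 0.115% of genes). The median log2 difference of the members was 1.41 in siLP, 0.27 in cLP and 0.09 in spleen. These medians depended on single wild type libraries: they were 2.80, 1.52 and 1.57 in siLP, cLP and spleen without that organ's wild type c, and -0.03 in cLP and -0.28 in spleen without wild type b.

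Among the members, the smallest p in the averaged genotype comparison belonged to Trbv26 and Trbv23. Trbv26 had a fitted log2 difference of -7.31 ± 1.34 (SE) and Trbv23 one of -8.90 ± 1.60, each with an edgeR adjusted p of 0.152. For both, CAR-deficient libraries lay below wild type ones in 24 of 27 pairs within an organ. The 3 other pairs were all with wild type c. These pairs reuse the same libraries, and the high share in wild type a and b was known beforehand, so the count is a description only. Trbv26 had no count in 3 CAR-deficient libraries and Trbv23 in 5, among them every siLP one. The size of the Trbv23 estimate can therefore depend on the prior count of the fit. DESeq2 gave -7.34 for Trbv26 and -8.78 for Trbv23. Without wild type a and b the edgeR estimates for Trbv26 and Trbv23 were -0.85 and -1.47. Without the library labelled siLP CAR-deficient a they were -7.15 and -8.92 (edgeR adjusted p = 0.341).

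Trbv2 (ENSMUSG00000076462; Vβ4), named after its values were seen, held 0.217% to 8.25% in CAR-deficient libraries, against 0.0698% to 1.46% in wild type ones. Its values were 8.25%, 1.96% and 0.511% in siLP CAR-deficient libraries a, b and c, 7.5%, 0.659% and 1.03% in their cLP counterparts and 5.51%, 6.11% and 0.217% in their spleen counterparts. Wild type cells had 0.0698%, 0.121% and 0.241% in siLP wild type libraries a, b and c, 1.46%, 0.174% and 0.494% in their cLP counterparts and 0.682%, 0.843% and 0.651% in their spleen counterparts. The highest value was in CAR-deficient a in siLP and cLP and in CAR-deficient b in spleen. The genotypes overlapped, with CAR-deficient below wild type in 5 of 27 pairs within an organ. The averaged log2 difference was 3.14 ± 0.74 (edgeR adjusted p = 0.245; DESeq2 adjusted p = 0.000477). Both p-values count the organs of a genotype and ending as independent and may be too small.

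Between organs, averaged over genotypes, edgeR called 0 of 23 members in siLP minus spleen, where 0.847% of genes were called, 0 in cLP minus spleen (3.07%) and 0 in siLP minus cLP (0%). At an unadjusted p under 0.05 there were 0 members in each, where 9.65%, 15% and 8.34% of genes passed, and DESeq2 called 0 members in each, where it called 2.68%, 7.13% and 1.45% of genes. The median log2 differences of the members were -0.04, -0.03 and -0.03, and each took both signs as single libraries were left out. The genotype effect in siLP minus that in spleen, and in cLP minus that in spleen, had 0 called members (0% of genes in both), with 1 and 0 at an unadjusted p under 0.05 (2.27% and 1.24% of genes) and 0 by DESeq2 (0.0811% and 0.0541% of genes).

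Other genes of the receptor did not pass either. Of 11 genes of the receptor and its proximal signalling (Trbc1, Trbc2, Trac, the CD3 chains Cd3d, Cd3e, Cd3g and Cd247, the coreceptor Cd4, and Lck, Zap70 and Lat), edgeR called 0 in each of the 9 comparisons, where 0% to 3.07% of all genes were called. At an unadjusted p under 0.05 there was 1 in the averaged genotype comparison, where 5.77% of all genes passed. There were 2 each in siLP minus spleen and siLP minus cLP (9.65% and 8.34% of genes), and 0 in all other comparisons. Of 14 Trbj segments edgeR called 0 in each comparison, with 3 at an unadjusted p under 0.05 in the averaged genotype comparison (5.77% of genes). At that level there was 1 each in the genotype comparison in spleen (1.95% of genes) and the genotype effect in siLP minus that in spleen (2.27%). There was also 1 each in siLP minus spleen (9.65%) and siLP minus cLP (8.34%), and 0 in all other comparisons. Of the recombination genes, Rag1 had 0 counts in every library and Rag2 at most 0.143 CPM.

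Markers of other lymphocytes also differed between libraries. All 4 gamma delta T cell markers were present in some libraries, and summed to 78.9 to 658 CPM in CAR-deficient libraries, 1.75 to 69.9 CPM in wild type a and b and 96.2 to 814 CPM in wild type c. Tcrg-C2 made up most of the higher sums and reached 544 CPM. The defining delta constant segment, Trdc, was at 0 in 8 of 18 libraries and did not follow these sums. It was at most 3.29 CPM in CAR-deficient libraries and 2.70 CPM in wild type c. Wild type a and b had 0 to 37.2 CPM of Trdc. The B cell markers Cd79a, Ms4a1 and Ighm summed to 0.444 to 48.9 CPM in CAR-deficient libraries, 0.0563 to 12.02 CPM in wild type a and b and 74.5 to 108 CPM in wild type c. Nearly all of the sum in wild type c was Ighm (74.1 to 107 CPM). Ighm was also higher in ending c of the CAR-deficient cells (38.9 to 48.8 CPM) than in their endings a and b (at most 10.1 CPM). Cd79a did not follow it, with 0 in 5 of 18 libraries and at most 4.13 CPM, in cLP CAR-deficient a, where Ighm was at 0. The part of other lymphocytes in the differences of beta V usage was not tested.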

How the data were processed

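The members and gene lists were chosen with earlier results of these data known. Per the labels' protocols, the kits were SMART-Seq v4 for cDNA and NEBNext Ultra II DNA for libraries. The authors deposited estimated counts per gene, per the file headers. Salmon, DESeq2 and mm10 are named in the submitters' processing notes, without versions or roles; which annotation was counted is not given in the sources used here. Values came from 18 columns of counts, and 37 further columns stayed unused, among them per-length values, for which counts over annotated transcript length stood in. Columns were matched to groups by organ and CD45.1 status, with negative ones taken as CAR-deficient by elimination. Gene identifiers were matched to GENCODE vM21 symbols, 34083 of 34162.

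Shares are percentages of the summed Trbv counts of a library. Counts were rounded, filtered with filterByExpr (14876 genes), scaled by TMM and fitted with 6 group means to all 18 libraries in edgeR 4.0.16 (glmQLFit, glmQLFTest, two-sided), and Benjamini-Hochberg adjustment ran over the 14876 genes (threshold 0.05). The 9 comparisons were the genotype difference (CAR-deficient minus wild type) per organ and averaged, siLP minus spleen, cLP minus spleen and siLP minus cLP averaged over genotypes, and 2 differences of the genotype effect. A standard error is the absolute log2 difference over the square root of F. Summed Trbv levels were compared by exact permutation, of genotype inside each organ (8000 assignments) or of organ inside each genotype (400), and 3 libraries against 3 in 1 organ allow no p under 0.1. The fit was tested on simulated data. Alternatives were other normalizations, DESeq2 1.42.0, no filter, the column ending as a block, each library left out, per-length shares and other indices; those without wild type a and b, or without Trbv26 and Trbv23, were added after seeing the data. Python 3.11.15 with scipy 1.17.1 and R 4.3.3 were used.

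Segments were named with all their shares if they held at least 10% in any library, and pseudogenes if they held 1%. The 2 with the smallest p in the averaged genotype comparison were named with their test, as were Trbc1, Trbc2 and Nr1i3, and the leading alpha segment of each library. One gene of the B cell marker list is not reported here, and the summed level leaves it out.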

Additional observations from a re-analysis of the deposited data

How the results depend on the processing

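The main limits are 3 libraries per group, endings that are no stated replicate numbers, and split reads in the Trbv12 and Trbv13 subgroups. The count of Trbv members called changed under DESeq2, which called 2 in siLP and 3 in the averaged genotype comparison, and with no filter, which called 2 in the average (0.0372% of genes); the cause was not tested for these or the following changes. Leaving out 1 library kept 0 called members in each of the 9 comparisons, while some other genes were called. Without siLP wild type a, for example, 2 of 15717 genes were called in the averaged genotype comparison, 96 in siLP minus spleen and 445 in cLP minus spleen. The summed Trbv level reversed for genotype without wild type a and b (-0.0977) and for cLP minus spleen with unscaled totals (-0.0324); leaving out 1 library gave -0.0270 to 0.117 for cLP minus spleen, 0.117 to 0.233 for genotype and 0.126 to 0.296 for siLP minus spleen. Effective numbers moved to 11.9 in siLP, 13.2 in cLP and 13.9 in spleen wild type cells without Trbv26 and Trbv23, and in cLP CAR-deficient cells to 8.25 by the inverse Simpson index and to 9.19 with subgroups summed. Leaving out 1 library gave effective numbers of 8.76 to 11.8 in siLP CAR-deficient, 4.85 to 9.02 in siLP wild type, 10.5 to 11.7 in cLP CAR-deficient, 5.08 to 9.21 in cLP wild type, 9.21 to 12.5 in spleen CAR-deficient and 4.46 to 9.52 in spleen wild type cells.

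Median overlap of different genotypes and endings moved to 49.6% without Trbv26, 58.2% without Trbv26 and Trbv23 and 58.9% without wild type a and b. For different genotypes with the same ending it moved to 50.01%, 54.3% and 49.4%, and by the Morisita-Horn index the medians were 8.58% for different and 11.3% for the same ending. Without wild type a and b the Trbc2 difference was -0.33 in siLP and the Trbc1 difference 0.23 in cLP, 0.31 in spleen and 0.32 on average, the reverse of the sign with all libraries. Leaving out 1 library gave -0.153 to 0.0472 for Trbc1 on average, with 0.0472 without cLP wild type a, 0.00989 without spleen wild type a and 0.0078 without siLP wild type a. In spleen the Trbc1 difference ran from -0.213 to 0.191, turning positive without spleen wild type a (0.191) or spleen CAR-deficient a (0.118). In siLP the Trbc2 difference, 0.0072 with all libraries, ran from -0.164 to 0.206, turning negative without siLP wild type a (-0.0631), siLP wild type b (-0.0792) or siLP CAR-deficient c (-0.164). Deviations from the group mean correlated above 0.1 in 40 of 45 pairs of libraries of the same ending and different groups, and in 7 of 90 other pairs. The labels number replicates but the columns do not carry the numbers, so the column ending was used as the replicate block. That block spans both genotypes and does not model the sets of 1 genotype and ending. With that block 0 Trbv members were called in each of the 9 comparisons. Of 14876 genes 7 were called in the averaged genotype comparison, 243 in siLP minus spleen, 747 in cLP minus spleen and 16 in siLP minus cLP. In the other comparisons 0 genes were called. The adjusted p of the summed level (exact permutation within block) was 0.281 for genotype and for siLP minus spleen and 0.563 for cLP minus spleen. The Trbc1 difference in spleen was 0.0162 with the block, against -0.0428 without it. Deposited per-length columns were not used, and the TPM alternative was replaced by counts over annotated transcript length. The medians over the members moved as given above. No other setting changed the sign of a summed or constant segment difference or put one past the threshold.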
